A study of Mus musculus with 10 samples.

Results

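The genes described here are those of synaptic vesicle glycoprotein 2 (*Sv2a*, *Sv2b* and *Sv2c*), whose SV2A protein binds the anti-seizure drug levetiracetam (LEV), and 6 genes of neurotransmitter release (*Syt1*, *Snap25*, *Stx1a*, *Vamp2*, *Syn1* and *Syn2*). They were taken by gene symbol, and all 9 were found, each 1 time, among the 15900 genes of the table. The study examined whole hippocampi of male ICR (CD-1) mice after status epilepticus (SE) caused by pilocarpine (PILO). Cap analysis of gene expression (CAGE) reads the 5′ end of capped RNA, 1 tag standing for 1 start of transcription, and values are in CPM, the tags of a gene scaled to the total of its library. All 10 libraries came from separate mice, 2 for each of 5 groups. The pre-SE mice were untreated per the labels, and controls received saline in place of PILO per the methods. SE 6 h and SE 2 days mice received PILO and were sampled 6 h or 2 days after SE, while SE + LEV 6 h and SE + LEV 2 days mice were also given LEV by mouth. Mice given PILO were 9–10 weeks old, had methyl scopolamine beforehand and diazepam to end the convulsions, and SE was defined by 5 generalized convulsive seizures. LEV had been given 1 time before sampling at 6 h and 5 times before sampling at 2 days. None of the groups received LEV without SE, so the comparisons with LEV are comparisons among mice that had seizures and diazepam.

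Neurotransmitter is released when a synaptic vesicle fuses with the presynaptic membrane. The vesicle protein synaptobrevin 2 (*Vamp2*) pairs with syntaxin 1 (*Stx1a*) and SNAP-25 (*Snap25*) of the plasma membrane in a SNARE complex, and synaptotagmin 1 (*Syt1*) is the calcium sensor that triggers rapid fusion. Synapsins I and II (*Syn1* and *Syn2*) tether vesicles in the reserve pool, and SV2 proteins are vesicle glycoproteins that help to prime vesicles for calcium-triggered release. SV2A is found in nearly all neurons, SV2B is abundant in the forebrain, and SV2C has a more restricted distribution with high levels in the basal ganglia.

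As CAGE counts starts of transcription, the promoters of the 3 SV2 genes are shown first, with that of *Syn1* because it alone among the members listed held a match to a motif searched. The sequences are from the RefSeq promoter table made on GRCm38.p6, which had entries for 7 of the 9 members, and each was placed in mm9, the build of the data, by exact match to the chromosome. Each covers 250 bases before and 50 bases from a transcript's start, read 5′ to 3′ on the strand of the gene. In the first 3, capitals mark the 50 bases from the start. In *Syn1*, capitals mark 2 motif matches, TTCAGCACC (the left arm of the RE1 element that the neuronal repressor REST binds) at base −232 and TGACGTCA (the cyclic AMP response element, CRE) at base −159, counted from the start.
Sv2a, mm9 chr3:95984900-95985199, plus strand: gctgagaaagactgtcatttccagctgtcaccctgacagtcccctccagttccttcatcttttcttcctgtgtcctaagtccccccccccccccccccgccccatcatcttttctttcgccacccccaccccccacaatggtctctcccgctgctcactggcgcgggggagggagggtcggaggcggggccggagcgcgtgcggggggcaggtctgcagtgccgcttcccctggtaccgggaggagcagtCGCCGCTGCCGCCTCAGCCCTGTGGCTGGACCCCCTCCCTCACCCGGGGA
Sv2b, mm9 chr7:82454099-82454398, minus strand: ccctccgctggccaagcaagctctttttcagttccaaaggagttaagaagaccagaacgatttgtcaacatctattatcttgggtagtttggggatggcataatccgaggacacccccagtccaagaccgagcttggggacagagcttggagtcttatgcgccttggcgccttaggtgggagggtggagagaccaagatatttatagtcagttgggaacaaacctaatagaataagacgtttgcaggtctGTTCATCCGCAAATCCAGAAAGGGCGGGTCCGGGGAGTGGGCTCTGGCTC
Sv2c, mm9 chr13:96902483-96902782, minus strand: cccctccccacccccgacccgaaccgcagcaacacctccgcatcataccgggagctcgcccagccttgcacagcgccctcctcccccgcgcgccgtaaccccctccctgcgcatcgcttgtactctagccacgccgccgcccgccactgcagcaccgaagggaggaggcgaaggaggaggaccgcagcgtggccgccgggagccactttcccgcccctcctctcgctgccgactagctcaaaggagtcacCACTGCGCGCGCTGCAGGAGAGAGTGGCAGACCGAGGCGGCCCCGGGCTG
Syn1, mm9 chrX:20497995-20498294, minus strand: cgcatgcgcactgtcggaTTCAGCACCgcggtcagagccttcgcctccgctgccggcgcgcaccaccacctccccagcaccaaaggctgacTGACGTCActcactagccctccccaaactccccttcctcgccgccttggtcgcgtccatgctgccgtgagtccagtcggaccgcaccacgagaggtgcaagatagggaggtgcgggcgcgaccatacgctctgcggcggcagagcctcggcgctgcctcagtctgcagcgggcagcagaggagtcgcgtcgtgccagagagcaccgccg

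These promoters differed in base composition. The G+C content was 68.0% in the *Sv2a* promoter, 71.7% in that of *Sv2c* and 51.3% in the *Sv2b* promoter shown, beside a median of 52.7% over the 32851 promoters of the table. *Sv2b* had 4 promoter entries, of which the first is shown, and the others had 47.3%, 36.3% and 35.3%. Values are 1 per gene, so the start that the tags of *Sv2b* came from is not known here. A G+C content at least as high as that of *Sv2c* was found in 7.36% of all promoters. On both strands, CRE (TGACGTCA) was present in 1.79% of all promoters, AP-1 (TGACTCA) in 5.2%, EGR (GCGTGGGCG) in 0.612% and the RE1 left arm (TTCAGCACC) in 0.371%. Of the 12 promoters listed for the members, 1 held CRE, 1 held the RE1 left arm, and 0 held AP-1 or EGR letters. The whole RE1 pattern was in 0.00304% of all promoters and in 0 of the 12. A match is a run of letters and not a measured binding site.

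The tags assigned to genes, estimated from the steps of the rounded CPM values, numbered 10540698 to 51710968 per library (median 26671413). The estimate is least certain in pre-SE replicate 2, the deepest library, where a smaller total also put 95.12% of low values on whole tags. The fewest tags of a member in any library were an estimated 238, those of *Sv2c* in SE + LEV 6 h replicate 2. Several features of the libraries moved within or between groups. The choroid plexus gene *Ttr* ranged from 4.33 to 3936 CPM, values found in the 2 mice of the SE 6 h group, and the 2 measured choroid plexus markers summed to 7.99 to 3960 CPM. Glial marker lists differed in level between groups. The summed CPM of 8 microglia or macrophage markers was 162 to 174 in pre-SE mice, 93.7 to 112 in SE 6 h mice, 114 to 142 in SE + LEV 6 h mice, 381 to 383 in SE 2 days mice and 404 to 467 in SE + LEV 2 days mice. That of 5 astrocyte markers was 2130 to 2200, 1950 to 2410, 1840 to 2360, 3430 to 4820 and 3760 to 4310 in the same order of groups. The 5 oligodendrocyte markers summed to 4650 to 5120, 3200 to 6110, 3950 to 5200, 1670 to 2570 and 3060 to 4260 CPM, so that both SE + LEV 2 days mice were above both SE 2 days mice, although none of the 5 was called between them. The 4 endothelial markers summed to 54.2 to 59.9 CPM in pre-SE mice, 107 to 169 in SE 6 h mice and 92.7 to 107 in SE 2 days mice. Neuronal markers were high in all libraries, and the 7 markers of the list that were measured summed to 2040 to 2460 CPM in pre-SE mice, 2040 to 2790 in SE 6 h mice, 1810 to 2610 in SE + LEV 6 h mice, 1860 to 1970 in SE 2 days mice and 1570 to 1710 in SE + LEV 2 days mice. None of these 7 was called against pre-SE mice in SE 2 days mice, where their median logFC was −0.40. The 6 markers of hippocampal neurons summed to 573 to 728 CPM in pre-SE mice and 474 to 540 in SE 2 days mice, where *Fibcd1*, a marker of CA1 pyramidal cells, was called lower (logFC −2.02, adjusted p = 0.045). In bulk tissue, fewer cells of a type and less RNA per cell cannot be told apart. The part of these features in the results on the members was not tested, apart from the values given beside *Sv2c*.

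The 2 SE + LEV 2 days mice differed from each other. Over the 803 genes called higher in SE 2 days than in pre-SE mice, the median gene of replicate 2 stood at 65.0% of the distance between the pre-SE and SE 2 days means (on the log2 scale), and replicate 1 was above replicate 2 in 731 of the 803 genes (91.0%), a count made after the values were seen.

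In the level of the CAGE signal, *Snap25* ranked first among the members in all 10 libraries. Its mean over the 10 mice was 2020 CPM, the 17th highest of the 15900 genes. *Vamp2* and *Syt1* followed, each with a mean of 1090 CPM, and their order changed from mouse to mouse, with *Syt1* above *Vamp2* in 5 of the 10. *Sv2b* came next with 475 CPM, above both synapsins in 10 of 10 mice. *Syn2* (323 CPM) was above *Syn1* (282 CPM) in 7 of 10 mice, so that these neighbours were not separated. *Sv2a* (132 CPM), the gene of the LEV binding site, stood below *Syn1* and above *Stx1a* (75.6 CPM) in all 10. *Sv2c* was the lowest on average (43.1 CPM), but it was above *Stx1a* in the 2 SE 2 days mice and also in SE + LEV 2 days replicate 1. Since a CAGE tag marks 1 capped end, these CPM levels were set side by side without dividing by gene length.

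The comparison of SE with pre-SE mice asked how transcription changed in the period after SE. *Sv2c* was higher in SE 2 days mice than in pre-SE mice, and it was the only member called in that comparison and in any of the 8 comparisons made. Of the other 8 members, none passed the test at either time, and most had lower estimates than in pre-SE mice. A gene was called where the limma model over all 15851 genes tested gave a Benjamini-Hochberg adjusted p of at most 0.05, and logFC is the difference between group means on the log2(CPM + 0.1) scale. In that model, 5.07% of all genes were called higher and 0.593% lower at 2 days, and 2.76% higher and 0.202% lower at 6 h. With 2 mice in each group, an exact permutation test cannot give a two-sided p below 0.333, so that calls rest on the spread shared by the model. In the remaining comparisons, limma called 0 members in SE 2 days against SE 6 h mice, in SE + LEV 6 h against pre-SE mice and in SE + LEV 2 days against pre-SE mice, beside 4.25%, 0.322% and 2.85% of all genes. At an unadjusted p under 0.05, 2, 0 and 2 members passed there, beside 20.1%, 9.38% and 10.8% of all genes.

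*Sv2c* (ENSMUSG00000051111, mm9 chr13:96729398-96902532, minus strand) had 16.55 and 20.07 CPM before SE, 23.83 and 22.27 CPM at SE 6 h, 24.26 and 22.58 CPM at SE + LEV 6 h, 89.63 and 104.03 CPM at SE 2 days, and 89.41 and 17.99 CPM at SE + LEV 2 days. Both SE 2 days mice were far above the 6 mice of the pre-SE and 6 h groups, and the 2 SE + LEV 2 days mice were on opposite sides of that gap. The mean of SE 2 days mice was 5.29 times that of pre-SE mice, with a logFC of 2.40 (standard error 0.56, 95% interval 1.16 to 3.64, adjusted p = 0.034). This call depended on the mice in the fit. The standard error was pooled over all 5 groups, so it took in the split between the SE + LEV 2 days mice. The adjusted p was between 0.053 and 0.24 without any 1 of the pre-SE, SE 6 h, SE + LEV 6 h or SE 2 days mice, although the logFC stayed between 2.26 and 2.54. It was 0.00038 and 0.00033 without SE + LEV 2 days replicate 1 or 2, and 0.0017 with only the 2 groups compared in the fit.

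Against SE 6 h mice, the logFC of *Sv2c* in SE 2 days mice was 2.06 (standard error 0.56, adjusted p = 0.072) and was not called. This changed with the libraries fitted, as the adjusted p was 0.0019 and 0.0016 without SE + LEV 2 days replicate 1 or 2 and 0.0042 with only the groups compared. At 6 h, the logFC of *Sv2c* against pre-SE mice was 0.34 (standard error 0.56, adjusted p = 0.79), with both SE 6 h mice just above both pre-SE mice.

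**Figure D1:**
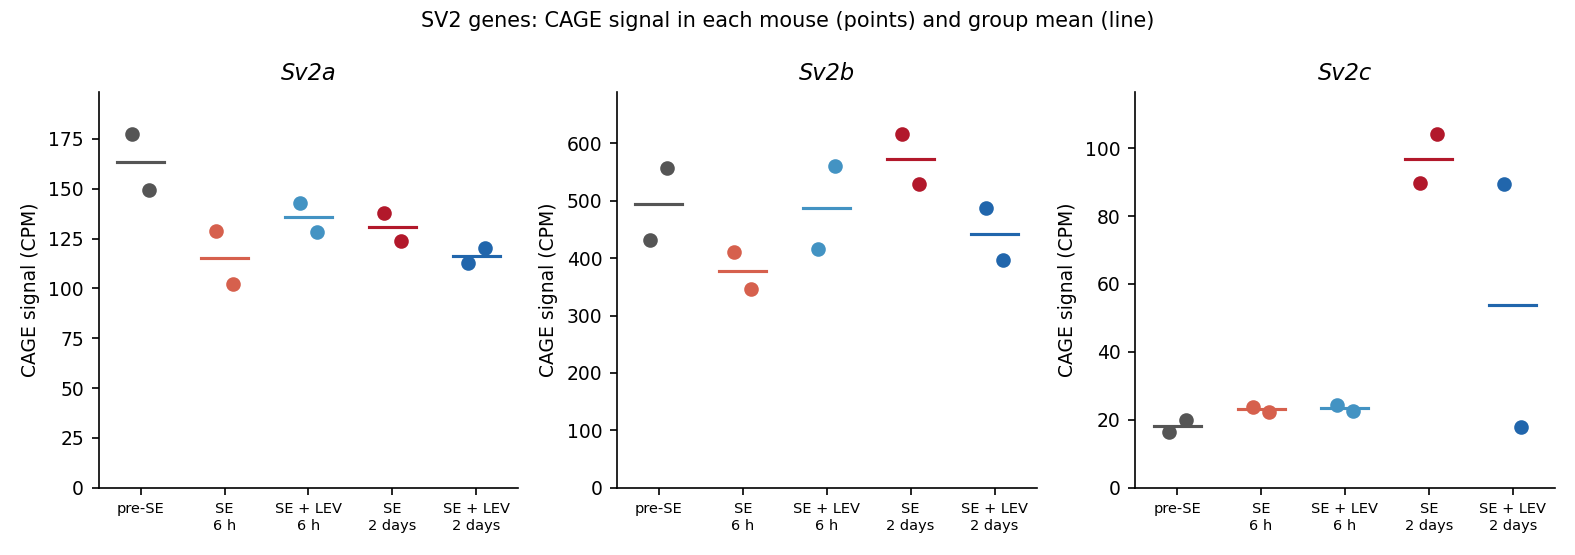
CAGE signal (CPM, linear axes from 0) of *Sv2a*, *Sv2b* and *Sv2c* in each of the 10 mice, with a line at the mean of each group. *Sv2c* was at 89.63 and 104.03 CPM in SE 2 days mice and at most 24.26 CPM in the pre-SE and 6 h groups, while the SE + LEV 2 days mice were at 89.41 and 17.99 CPM.

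As *Sv2c* is abundant in the basal ganglia, genes of neighbouring tissue were examined beside it. The 6 measured genes of that list summed to 59.0 to 66.2 CPM in pre-SE mice and 59.0 to 71.1 CPM in SE 2 days mice. Among the striatal genes, *Drd1a*, the D1 dopamine receptor, had 6.83 and 4.60 CPM in pre-SE mice and 15.05 and 16.86 CPM in SE 2 days mice, and was called (logFC 1.49, adjusted p = 0.041). The striatal gene *Rgs9* (logFC 0.77, adjusted p = 0.28) was not called in the same comparison. The choroid plexus gene *Ttr* was at 55.59 and 13.52 CPM in the SE 2 days mice and at 1668 CPM in pre-SE replicate 2, where *Sv2c* was at 20.07 CPM. In the SE + LEV 2 days mice, however, *Ttr* and *Sv2c* were high and low in the same mice, with 1475 and 18.89 CPM of *Ttr*, and the part of choroid plexus tissue in that difference was not tested. Some glial markers were called higher in SE 2 days mice as well, 2 of 5 for astrocytes and 3 of 8 for microglia or macrophages. Estimates were below 0 for 2 astrocyte markers, 1 microglia or macrophage marker and all 5 oligodendrocyte markers. *Gfap* of astrocytes (logFC 3.60, adjusted p = 0.00095) was at 3071 and 2312 CPM in SE + LEV 2 days replicates 1 and 2. *Cd68* (logFC 3.22, adjusted p = 0.0013) was at 74.3 and 33.1 CPM there, and *Aif1* (logFC 2.28, adjusted p = 0.003) at 93.36 and 79.8 CPM. These 2 mice had 89.41 and 17.99 CPM of *Sv2c*, and the part of glial cells in that difference was not tested.

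The genes with profiles nearest to that of *Sv2c* were sought among 10453 genes with a mean of at least 10 CPM, by the root mean square difference of log2 values centred on each gene's mean over the 10 mice. They were *Hist1h1a*, a linker histone gene (0.292), *Ccnd1*, which encodes cyclin D1 (0.376), and *AC151602.1* (0.387), beside a median of 1.06 over all candidates. *Hist1h1a* had 26.84 and 43.99 CPM at SE 2 days and 28.26 and 8.54 CPM at SE + LEV 2 days, while its levels in the other 6 mice were 5.41 to 7.47 CPM. These 10 points share their libraries with *Sv2c*, and the likeness is a description.

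*Sv2a* (ENSMUSG00000038486, mm9 chr3:95985074-95999444, plus strand) had 177 and 149.5 CPM before SE, 129 and 102 CPM at SE 6 h, 143 and 129 CPM at SE + LEV 6 h, 138 and 124 CPM at SE 2 days, and 113 and 120.4 CPM at SE + LEV 2 days. In CPM as deposited, all 8 mice after SE were below both pre-SE mice. After median-of-ratios or TMM rescaling, SE + LEV 6 h replicate 1 was above pre-SE replicate 2. The share of all genes with such an order, described below for *Syt1* and *Stx1a* as well, was not counted. Against pre-SE mice, its logFC was −0.50 at 6 h (standard error 0.21, 95% interval −0.98 to −0.03, unadjusted p = 0.038, adjusted p = 0.25). It was −0.32 at 2 days (standard error 0.21, adjusted p = 0.46) and was not called at either time. After median-of-ratios or TMM rescaling, the logFC at 6 h was −0.38 (unadjusted p = 0.11). Against pre-SE mice, the logFC as deposited was −0.26 in SE + LEV 6 h mice (adjusted p = 0.70) and −0.48 in SE + LEV 2 days mice (adjusted p = 0.44). These comparisons share the same 2 pre-SE mice. The nearest profiles to *Sv2a* were those of *Magee1* (0.068), *Fam65a* (0.082) and *Rabgap1* (0.083), beside a median of 0.356, and each was also highest in a pre-SE mouse.

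*Sv2b* (ENSMUSG00000053025, mm9 chr7:82259783-82454148, minus strand), the most abundant SV2 gene, had 431 and 557 CPM before SE, 409.9 and 347 CPM at SE 6 h, 416 and 559.7 CPM at SE + LEV 6 h, 616 and 529 CPM at SE 2 days, and 488 and 398 CPM at SE + LEV 2 days. In CPM as deposited, the SE 6 h mice were below both pre-SE mice, whereas the SE 2 days mice overlapped them. After median-of-ratios or TMM rescaling, SE 6 h replicate 1 was above pre-SE replicate 1. Relative to pre-SE mice, the logFC was −0.38 at 6 h (standard error 0.25, adjusted p = 0.46) and 0.22 at 2 days (standard error 0.25, adjusted p = 0.70). Between the times, SE 2 days mice were both above SE 6 h mice, with a logFC of 0.60 (95% interval 0.03 to 1.16, unadjusted p = 0.040, adjusted p = 0.22). The nearest profiles to *Sv2b* were those of *Bud13* (0.106), *Xpo5* (0.109) and *Prmt5* (0.114), beside a median of 0.377. The long noncoding RNA gene *1500012K07Rik* overlaps the start of *Sv2b* on the opposite strand in the annotation.

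As a share of the summed SV2 signal, which does not depend on the scaling of a library, *Sv2c* made up 2.65% and 2.76% before SE, 4.24% and 4.72% at SE 6 h, 4.16% and 3.18% at SE + LEV 6 h, 10.6% and 13.7% at SE 2 days, and 13.0% and 3.36% at SE + LEV 2 days. Its share in all 8 mice after SE was above that of both pre-SE mice. The share of *Sv2a* was 28.4% and 20.6% before SE and 16.3% and 16.4% at SE 2 days, and it was 16.3% and 22.5% at SE + LEV 2 days. *Sv2b* held 69.0% to 78.7% of the signal in every mouse. The shares were not tested.

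**Figure D2:**
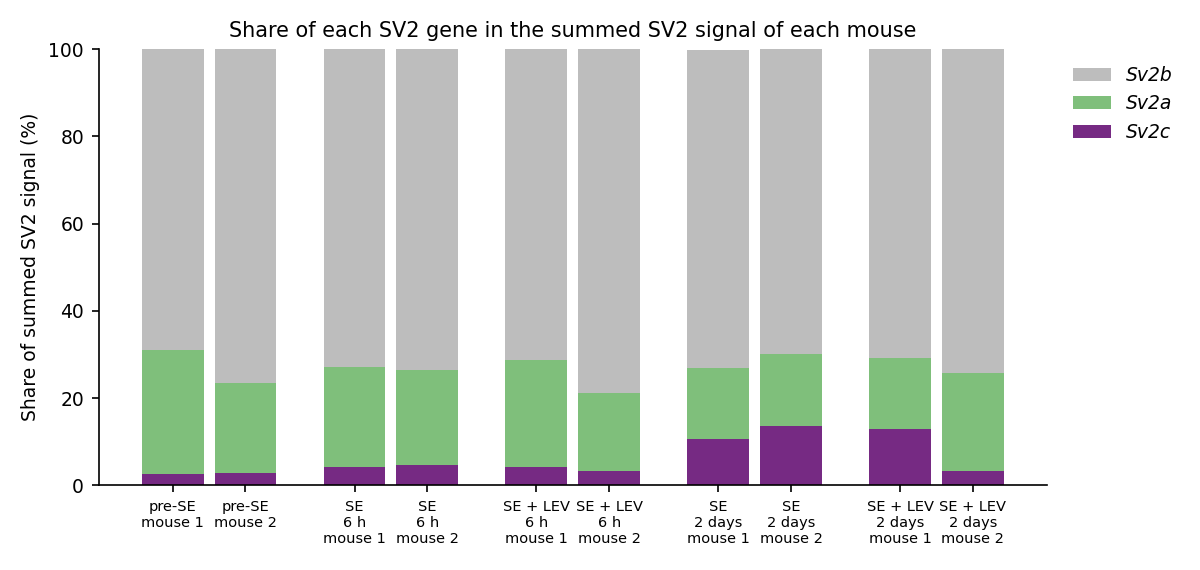
Share (%) of *Sv2a*, *Sv2b* and *Sv2c* in the summed SV2 signal, with 1 bar for each of the 10 mice. The *Sv2c* share was 2.65% to 4.72% in the pre-SE and 6 h groups, 10.6% to 13.7% in SE 2 days mice, and 13.0% and 3.36% in the 2 SE + LEV 2 days mice, and *Sv2b* was the largest share in all mice.

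*Syt1* (ENSMUSG00000035864, mm9 chr10:107934706-108448038, minus strand), the calcium sensor, had 1353 and 1484 CPM before SE, 1128 and 919 CPM at SE 6 h, 1172 and 1143 CPM at SE + LEV 6 h, 1118 and 718 CPM at SE 2 days, and 946 and 941 CPM at SE + LEV 2 days. Both pre-SE mice were above all 8 mice after SE. Compared with pre-SE mice, the fitted logFC was −0.48 at 6 h (standard error 0.27, adjusted p = 0.39) and −0.66 at 2 days (standard error 0.27, 95% interval −1.27 to −0.05, unadjusted p = 0.036, adjusted p = 0.21), which were not called.

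Of the SNARE genes, *Snap25* (ENSMUSG00000027273, mm9 chr2:136539189-136608164, plus strand) had 2855 and 2152 CPM before SE, 2898 and 1993 CPM at SE 6 h, 2597 and 1752 CPM at SE + LEV 6 h, 1621 and 1561 CPM at SE 2 days, and 1297 and 1481 CPM at SE + LEV 2 days. Mice of the 6 h groups overlapped the pre-SE mice. All 4 mice at 2 days were below every mouse of the other 3 groups, an order whose share of all genes was not counted. Against pre-SE mice, its logFC was −0.04 at 6 h (standard error 0.32, adjusted p = 0.96) and −0.64 at 2 days (standard error 0.32, adjusted p = 0.31). Its estimate at 6 h was 0.08 after median-of-ratios or TMM rescaling, so no direction is given for that time. Against SE 6 h mice, it was −0.60 in SE 2 days mice (adjusted p = 0.33), and in SE + LEV 2 days mice it was −0.84 against pre-SE mice (95% interval −1.55 to −0.12, unadjusted p = 0.026, adjusted p = 0.33).

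*Stx1a* (ENSMUSG00000007207, mm9 chr5:135499352-135526970, plus strand) had 86.3 and 92.6 CPM before SE, 74.5 and 49.7 CPM at SE 6 h, 79.7 and 84.1 CPM at SE + LEV 6 h, 82.0 and 66.6 CPM at SE 2 days, and 68.1 and 72.9 CPM at SE + LEV 2 days. In CPM as deposited, every mouse after SE was below both pre-SE mice. After median-of-ratios or TMM rescaling, SE + LEV 6 h replicate 1 was above pre-SE replicate 1. Relative to pre-SE mice, the logFC was −0.55 at 6 h (standard error 0.24, 95% interval −1.08 to −0.02, unadjusted p = 0.043, adjusted p = 0.26) and −0.27 at 2 days (standard error 0.24, adjusted p = 0.60). After median-of-ratios or TMM rescaling, the logFC at 6 h was −0.43 (unadjusted p = 0.1).

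*Vamp2* (ENSMUSG00000020894, mm9 chr11:68901992-68905886, plus strand) had 1014 and 1378 CPM before SE, 959 and 1079 CPM at SE 6 h, 1045 and 1092 CPM at SE + LEV 6 h, 1166 and 1113 CPM at SE 2 days, and 1067 and 1010.1 CPM at SE + LEV 2 days. The 2 pre-SE mice spanned most of the range of the gene, which was the narrowest among the members, with the highest mouse 1.44 times the lowest. Its logFC against pre-SE mice was −0.22 at 6 h (adjusted p = 0.69) and −0.05 at 2 days (adjusted p = 0.94). The paralogue *Vamp1* had 50.8 to 82.7 CPM and held 4.21% to 7.54% of the summed signal of *Vamp1* and *Vamp2*. At 2 days after SE, *Vamp1* had 51.3 and 63.2 CPM against 82.7 and 80.2 in pre-SE mice (logFC −0.52, adjusted p = 0.22).

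Of the synapsins, *Syn1* (ENSMUSG00000037217, mm9 chrX:20437637-20498130, minus strand) had 295 and 361 CPM before SE, 283 and 294 CPM at SE 6 h, 249 and 221 CPM at SE + LEV 6 h, 271 and 311 CPM at SE 2 days, and 302 and 229.8 CPM at SE + LEV 2 days. In CPM as deposited, the SE 6 h mice were just below the pre-SE mice and the SE 2 days mice overlapped them. After median-of-ratios or TMM rescaling, both SE 6 h mice were above pre-SE replicate 1. The logFC of *Syn1* against pre-SE mice was −0.18 at 6 h (standard error 0.23, adjusted p = 0.72) and −0.17 at 2 days (standard error 0.23, adjusted p = 0.74). *Timp1*, a metalloproteinase inhibitor gene, lies within an intron of *Syn1* on the opposite strand, and had 0.17 and 0.19 CPM in pre-SE mice, 59.61 and 231.98 CPM in SE 2 days mice, and 181.38 and 25.01 CPM in SE + LEV 2 days mice. Whether strand was used when tags were assigned to genes is not stated, so tags of *Timp1* and *Syn1* may not be separated, and the part of *Timp1* in the values of *Syn1* was not tested. *Araf* overlaps the end of *Syn1* by 9 bases and had 94.9 to 163 CPM over the 10 mice.

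*Syn2* (ENSMUSG00000009394, mm9 chr6:115084920-115232644, plus strand) had 368 and 428 CPM before SE, 303 and 272 CPM at SE 6 h, 311 and 379 CPM at SE + LEV 6 h, 309 and 209.9 CPM at SE 2 days, and 273 and 376 CPM at SE + LEV 2 days. In CPM as deposited, both SE groups without LEV were below the pre-SE mice, while each LEV group reached into their range. After median-of-ratios or TMM rescaling, the SE + LEV 2 days mice were below that range. Compared with pre-SE mice, the fitted logFC was −0.47 at 6 h (standard error 0.26, adjusted p = 0.38) and −0.64 at 2 days (standard error 0.26, 95% interval −1.22 to −0.05, unadjusted p = 0.036, adjusted p = 0.21). *Timp4*, in an intron of *Syn2* on the opposite strand, had 49.6 to 98.6 CPM over the 10 mice. The third synapsin gene, *Syn3*, was low, with 10.3 to 18.8 CPM, and its logFC was −0.64 at 6 h (adjusted p = 0.23) and −0.08 at 2 days. Within the synapsins, *Syn1* held 43.3% and 44.7% of the signal before SE and 45.2% and 57.9% at SE 2 days.

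**Figure D3:**
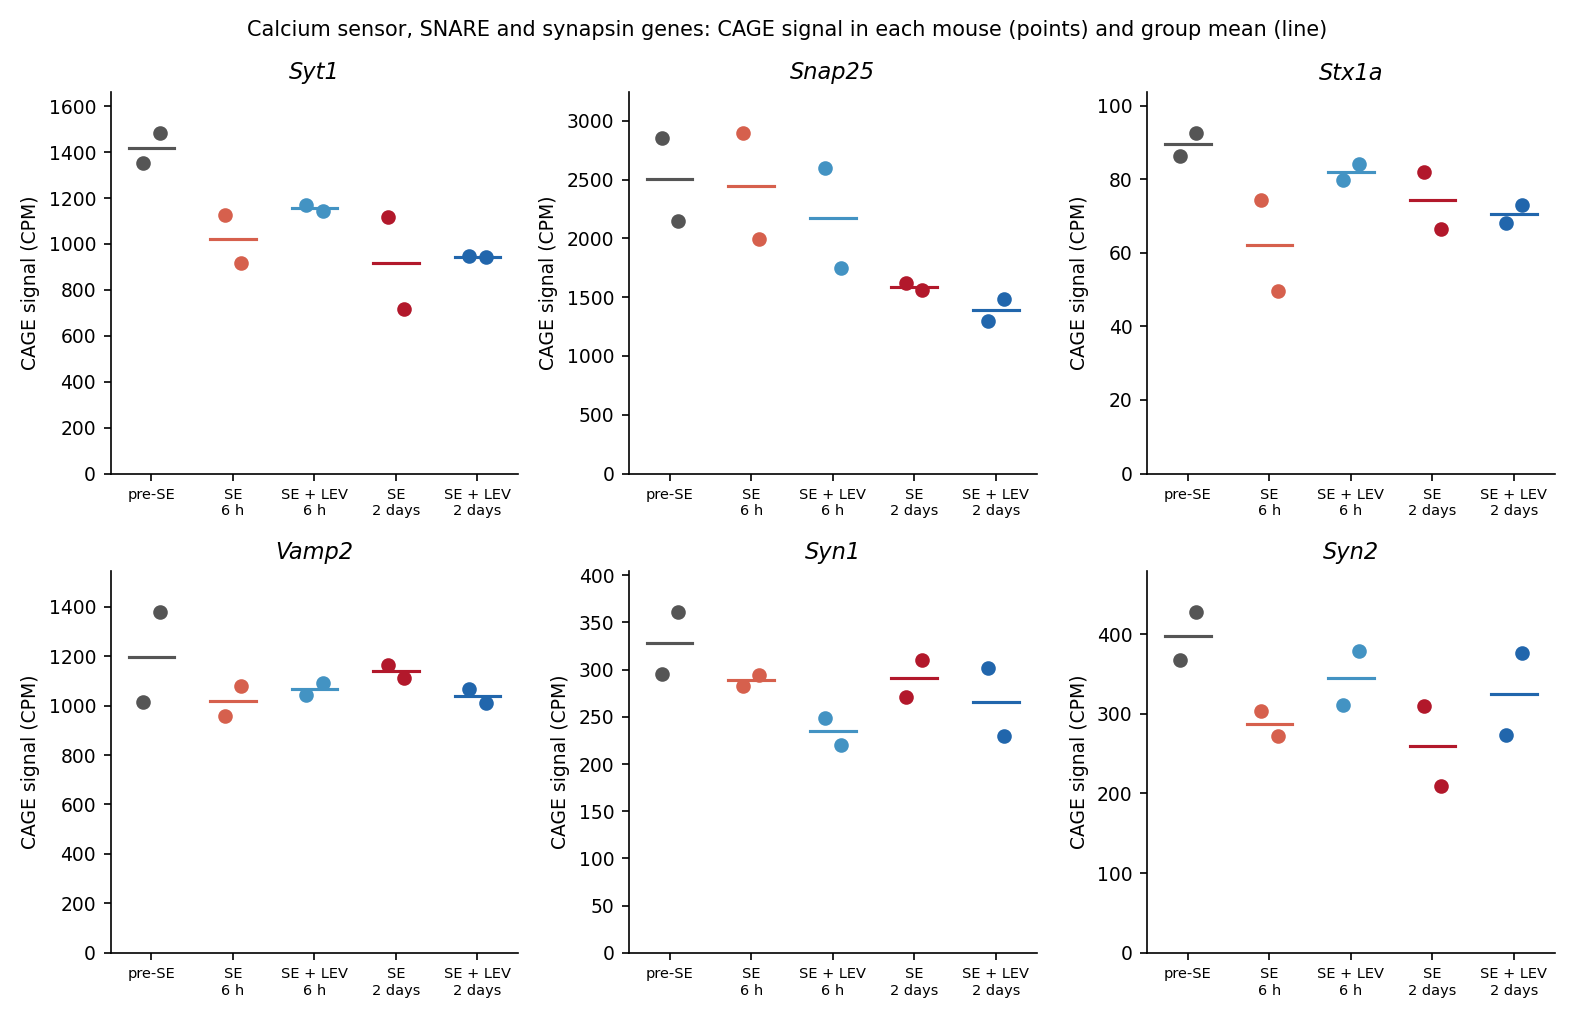
CAGE signal (CPM, linear axes from 0) of *Syt1*, *Snap25*, *Stx1a*, *Vamp2*, *Syn1* and *Syn2* in each of the 10 mice, with a line at the mean of each group. In CPM as deposited, *Syt1* and *Stx1a* were highest in the 2 pre-SE mice, and *Snap25* was lower in all 4 mice at 2 days (1297 to 1621 CPM) than in the other 6. The shares of all genes with such orders were not counted.

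Counted together at 6 h, 8 of the 9 members had an estimate below 0 against pre-SE mice, and the median logFC was −0.38 beside −0.13 over all genes tested. Rescaling by median of ratios moved the median of all genes to −0.00451 and that of the members to −0.25, with 7 of 9 below 0. Over all genes, 60.0% had an estimate below 0 as deposited. In CPM as deposited, both SE 6 h mice were below both pre-SE mice in 6 members, where 31.3% of all genes did so. They were above in 1, beside 18.6% of all genes. After median-of-ratios or TMM rescaling, the groups overlapped in *Sv2b* and *Syn1*, and the shares of all genes were not counted. At an unadjusted p under 0.05, 2 members (*Sv2a* and *Stx1a*) passed, beside 17.7% of all genes. After median-of-ratios or TMM rescaling, 0 members passed at that level, with a limma p of 0.11 for *Sv2a* and 0.1 for *Stx1a*. Likewise, 0 passed without the mean-variance trend or with only the groups compared in the fit. At 2 days, 7 of 9 were below 0 (52.8% of all genes), with a median of −0.27 beside −0.03. In 5 members both SE 2 days mice were below both pre-SE mice, and in 1 (*Sv2c*) they were above, where 25.6% and 26.3% of all genes did so. An unadjusted p under 0.05 was given for 3 members (*Sv2c*, *Syt1* and *Syn2*), beside 19.8% of all genes.

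The comparison of SE + LEV with SE asked whether LEV, given after SE, changed these genes. No member was called at either time. At 6 h, 0.0126% of all genes were called, and at 2 days 0%. At an unadjusted p under 0.05, 0 of 9 members passed at 6 h, beside 4.58% of all genes, and 1 (*Sv2c*) at 2 days, beside 2.70%. *Sv2a*, the gene of the LEV binding site, had overlapping groups at 6 h, with a logFC of 0.24 (standard error 0.21, 95% interval −0.23 to 0.71, adjusted p = 1.0). At 2 days both SE + LEV mice were below both SE mice in *Sv2a*, by a logFC of −0.17 (standard error 0.21, 95% interval −0.64 to 0.30, adjusted p = 1.0). These intervals leave room for a change of *Sv2a* in either direction.

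In *Sv2c*, both SE + LEV 2 days mice were below both SE 2 days mice in CPM as deposited, but replicate 1 only by 89.41 against 89.63 CPM. After median-of-ratios or TMM rescaling, SE + LEV 2 days replicate 1 was above SE 2 days replicate 1 in *Sv2c*. The logFC of *Sv2c* with LEV at 2 days was −1.26 (standard error 0.56, 95% interval −2.50 to −0.02, unadjusted p = 0.046, adjusted p = 1.0) and was not called. It was −2.42 (adjusted p = 0.075) without SE + LEV 2 days replicate 1 and −0.11 without replicate 2, so that its size rested on replicate 2. Against pre-SE mice, the logFC of *Sv2c* in SE + LEV 2 days mice was 1.13 (adjusted p = 0.53), and it was −0.02 without replicate 1 and 2.29 (adjusted p = 0.0020) without replicate 2. On the log2 scale, *Sv2c* stood at 95.4% of the distance between the pre-SE and SE 2 days means in replicate 1 and at −0.778% in replicate 2. Of the 803 genes called higher at 2 days, 7 had a lower share in replicate 2. These genes were called in a fit whose spread took in both SE + LEV 2 days mice. Genes widely split between these mice were less likely to be called, so the count is partly set by the selection. At 6 h, the logFC of *Sv2c* with LEV was 0.02, with a 95% interval from −1.22 to 1.26. The SE 6 h mice had 23.83 and 22.27 CPM and the SE + LEV 6 h mice 24.26 and 22.58 CPM. The interval uses the spread pooled over all 5 groups, which includes the split SE + LEV 2 days mice.

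*Sv2b* had a logFC with LEV of 0.35 at 6 h (95% interval −0.21 to 0.92) and −0.37 at 2 days (95% interval −0.94 to 0.19), both with an adjusted p of 1.0. In CPM as deposited, both SE + LEV mice were above both SE mice at 6 h, with 416 CPM against 409.9 CPM for the nearest pair. At 2 days both were below. The difference between the 2 LEV effects was −0.73 (standard error 0.36, 95% interval −1.53 to 0.07, unadjusted p = 0.069, adjusted p = 1.0). For *Sv2a* this difference was −0.41 and for *Sv2c* −1.29, both with an adjusted p of 1.0, and 0% of all genes were called in that comparison.

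Of the release genes, *Stx1a* had the largest LEV estimate at 6 h, with a logFC of 0.43 (95% interval −0.10 to 0.96), and *Syn1* the lowest, with −0.30 (95% interval −0.80 to 0.20). *Syt1* (0.18), *Syn2* (0.26) and *Vamp2* (0.07) were above 0 at 6 h and *Snap25* (−0.17) below. In CPM as deposited, the groups overlapped in the last 2. At 2 days, *Syn2* (0.33) and *Syt1* (0.07) were above 0, while *Snap25* (−0.20), *Syn1* (−0.14), *Vamp2* (−0.13) and *Stx1a* (−0.07) were below. The median over the 9 members was 0.18 at 6 h beside 0.04 over all genes, and −0.14 at 2 days beside 0.04. Of the 9, 2 were below 0 at 6 h (44.2% of all genes) and 7 at 2 days (44.6% of all genes). In CPM as deposited, both SE + LEV mice were above both SE mice at 6 h in 4 members, where 16.1% of all genes did so. They were below in 1, beside 13.4% of all genes. At 2 days they were above in 0 and below in 5 members, beside 15.2% and 12.2% of all genes. After median-of-ratios rescaling, the groups overlapped at 6 h in *Syt1* and *Sv2b*, and after TMM rescaling in *Syt1*. At 2 days, after either rescaling, they overlapped in *Sv2c* and no longer in *Stx1a*. The shares of all genes after rescaling were not counted.

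**Figure D4:**
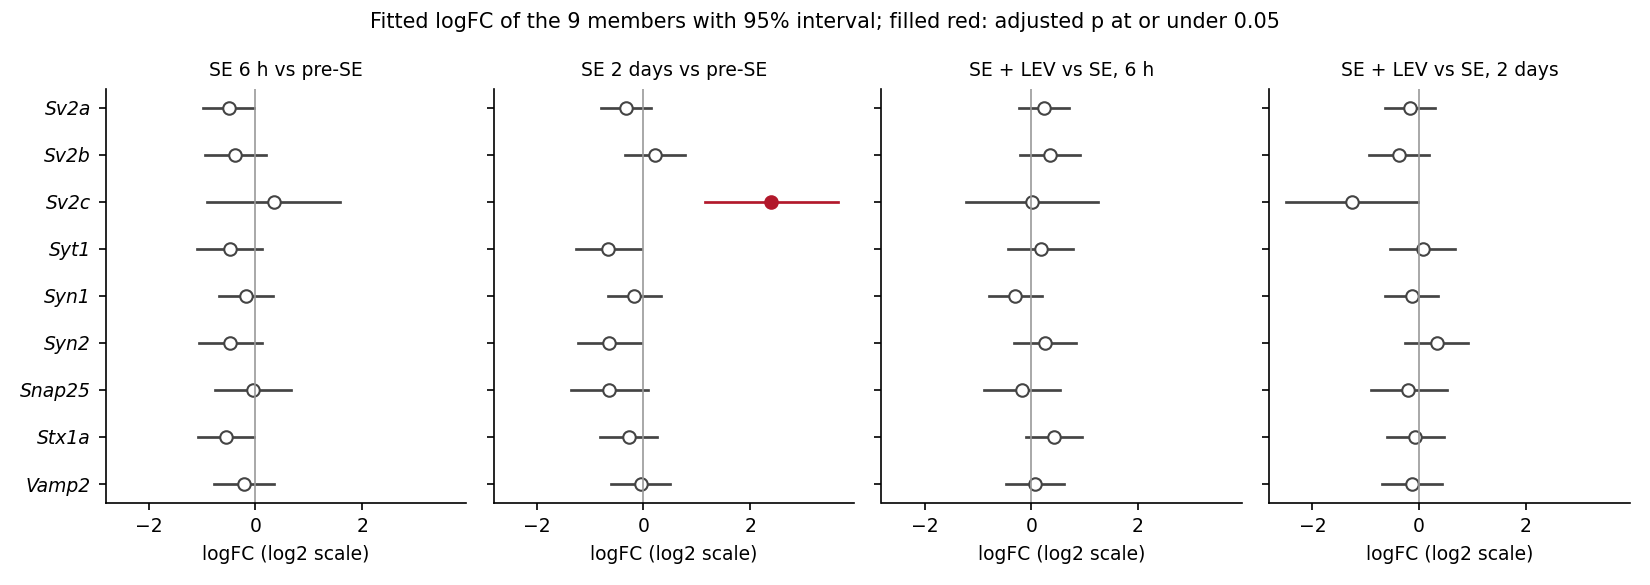
Fitted logFC (log2 scale) of the 9 members with the 95% interval of the limma model, for SE against pre-SE and SE + LEV against SE at each time. The filled red point is *Sv2c* at SE 2 days (2.40, 1.16 to 3.64), the only member called. Before adjustment, and with the values as deposited, the intervals of 5 other estimates also excluded 0.

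Other genes of vesicle release were described by a list of 82 measured genes. Against pre-SE mice, 1 rose and 0 fell at SE 6 h by the calls of the model, beside 2.76% and 0.202% of all genes, and 0 rose and 1 fell at SE 2 days, beside 5.07% and 0.593% of all genes. Their median logFC was −0.20 at 6 h and −0.26 at 2 days, beside −0.13 and −0.03 over all genes tested. At 6 h 55 of 82 (67.1%) were below 0, beside 60.0% of all genes, and at 2 days 61 of 82 (74.4%), beside 52.8%. *Erc1*, an active zone scaffold gene, had 55.7 and 69.4 CPM in pre-SE mice and 144 and 126 CPM in SE 6 h mice (logFC 1.11, standard error 0.25, adjusted p = 0.044). *Cadps2*, which encodes a priming factor of dense-core vesicles, had 57.2 and 57.7 CPM in pre-SE mice and 31.8 and 20.5 CPM in SE 2 days mice (logFC −1.17, standard error 0.30, adjusted p = 0.049). None of the 82 was called in the comparisons of SE + LEV with SE, where 2 had an unadjusted p under 0.05 at each time.

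By role, the 17 SNARE regulators had medians of −0.39 (6 h) and −0.36 (2 days) in logFC, the 16 active zone genes −0.13 and −0.33, the 15 other synaptotagmins −0.26 and −0.15, the 15 other vesicle proteins −0.23 and −0.13, and the 10 genes of vesicle endocytosis −0.07 and −0.45. The 9 other SNARE genes were at −0.01 and 0.18. *Syt4*, an activity-regulated synaptotagmin, had 129 and 146 CPM before SE, 496 and 307 CPM at SE 6 h, 171 and 113 CPM at SE + LEV 6 h, 163 and 353 CPM at SE 2 days, and 193 and 82.3 CPM at SE + LEV 2 days. Both SE 6 h mice were above all pre-SE and SE + LEV 6 h mice in *Syt4*. Its logFC was 1.51 at 6 h after SE (standard error 0.46, unadjusted p = 0.0084, adjusted p = 0.13) and −1.49 with LEV at 6 h (unadjusted p = 0.0088, adjusted p = 0.72), and neither was called.

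**Figure D5:**
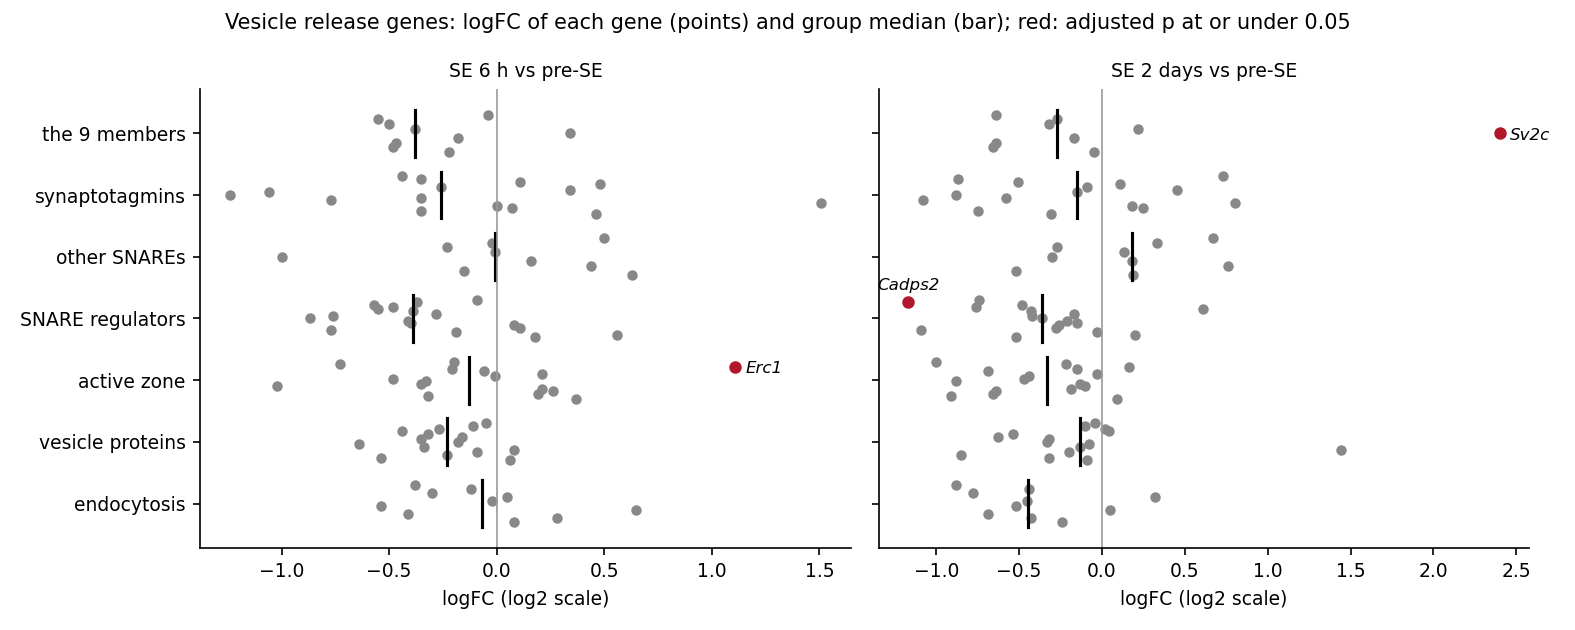
LogFC (log2 scale) against pre-SE mice of the 9 members and of the 82 other vesicle release genes by role, at SE 6 h and SE 2 days. Each point is a gene, black bars are medians of each list, and red points are the called genes *Erc1*, *Sv2c* and *Cadps2*.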

How the data were processed

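CAGE libraries of whole hippocampi from 10 mice were used, 2 in each group. Per the study's methods, tags were aligned to mm9 by BWA 0.7.17 and the rest by HISAT2 2.0.5, and RECLU clusters below 0.1 CPM were dropped. The values deposited by the authors are CPM, 1 per gene and mouse. How clusters were summed to genes and whether strand was used are not stated in the sources used here. All 15900 identifiers matched the mm9 annotation (GENCODE M1). Library totals were estimated as the smallest total that put every value on a whole multiple of 1 tag within the rounding of 0.005 CPM, checked on simulated data. Values were tested with limma 3.58.1 (R 4.3.3) on log2(CPM + 0.1), with 5 group means from all 10 libraries and a mean-variance trend. Tests were two-sided and p-values were adjusted by Benjamini-Hochberg across 15851 genes that reached 0.1 CPM in 2 or more libraries. The fit was tested on simulated data. Logs with a pseudocount understate changes of low genes. All 9 members were named in every comparison, as were *Syn3*, *Vamp1*, *Syt4*, genes overlapping a member, the 3 nearest profiles of each SV2 gene, and up to 6 called genes of the other vesicle release genes with the largest logFC, except genes that are not reported here. The members and all lists were chosen with earlier results of these data known. Where a symbol had 2 identifiers, the one with the higher mean was used. Alternatives were other pseudocounts, filters and scalings, a replicate block, no trend, only the groups compared, and each mouse left out in turn. Count models were not run. They required 95% of values of up to 20 tags to lie within 0.1 of a whole tag, which 3 libraries met. In the other 7 the share was 36.4% to 82.6%, since the rounding of CPM exceeds 0.1 tag in deep libraries. Other steps used Python 3.11.15, pandas 2.3.3 and matplotlib 3.10.9.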

Additional observations from a re-analysis of the deposited data

Results flagged for a closer look

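The LEV estimates of *Sv2b* had opposite signs at the 2 times, and neither passed the test (logFC 0.35 at 6 h and −0.37 at 2 days, both with an adjusted p of 1.0). Both SE + LEV mice were above both SE mice at 6 h and below both at 2 days, which 2.95% of all genes tested did in 1 order or the other. The logFC of the difference between the 2 LEV effects was −0.73 (standard error 0.36, unadjusted p = 0.069, adjusted p = 1.0), so the test of the difference itself did not pass, and at 6 h the nearest pair of mice differed by 416 against 409.9 CPM. Over the alternatives, no logFC changed sign or passed the test. The order of the mice at 6 h did depend on scaling. After median-of-ratios rescaling, SE 6 h replicate 1 was just above SE + LEV 6 h replicate 1.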

How the results depend on the processing

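With 2 mice in each group, precision is limited by the spread between mice and not by depth, as every member had an estimated 238 tags or more in every library. Of 162 alternative counts of called members, 149 equalled the count reported, and of 1053 alternative logFC values of the members, 27 changed sign, 9 lost a call and 4 gained one. Counts in the comparisons of SE + LEV with SE, and in the difference between the LEV effects, are a weak check. Few or no genes of the whole table were called there under any alternative. The 100 alternative paralogue shares are no check of the shares. A share does not depend on scaling, and leaving out 1 of 2 mice cannot move a group mean by more than their spread. In SE 2 days against pre-SE mice, 1 member (*Sv2c*) was called, and 0 without the mean-variance trend (adjusted p = 0.059). With each mouse left out in turn, the count was between 0 and 1, while all genes called numbered 897 with all mice and 249 without SE 2 days replicate 2. In SE 2 days against SE 6 h mice, 0 members were called, 1 (*Sv2c*) with only the groups compared, and 0 to 1 with a mouse left out. In SE + LEV 2 days against pre-SE mice, 0 to 1 were called with a mouse left out. The logFC of *Snap25* in SE 6 h against pre-SE mice became 0.08 under both rescalings and was −0.31 to 0.23 with a mouse left out. That of *Sv2c* with LEV at 6 h became −0.04 under median of ratios and −0.02 under TMM, and was −0.03 to 0.07 with a mouse left out. That of *Sv2b* in SE + LEV 6 h against pre-SE mice became 0.05 under median of ratios and 0.06 under TMM, and was −0.24 to 0.19 with a mouse left out. The remaining changes of sign came with a mouse left out. Against pre-SE mice, the ranges were −0.44 to 0.00476 for *Vamp2* in SE 6 h mice, −0.27 to 0.17 for *Vamp2* in SE 2 days mice, −0.50 to 0.07 for *Snap25* in SE + LEV 6 h mice, and −0.34 to 0.03 for *Sv2b* and −0.02 to 2.29 for *Sv2c* in SE + LEV 2 days mice. For LEV at 6 h, they were −0.46 to 0.11 for *Snap25* and −0.02 to 0.16 for *Vamp2*, and at 2 days −0.24 to 0.39 for *Syt1*, −0.34 to 0.06 for *Syn1* and −0.22 to 0.08 for *Stx1a*. For the difference between the LEV effects, the range was −0.31 to 0.26 for *Snap25*. The causes were not tested.

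The replicate numbers are labels of different animals and do not pair the mice. The deviations of same-numbered mice from pre-SE and SE mice correlated across genes at 0.34 for SE 6 h and at 0.057 for SE 2 days. With the replicate number as a block, *Sv2c* stayed called in SE 2 days mice (logFC 2.40, adjusted p = 0.045) and the count of called members was 1 in that comparison and 0 in the other 7. Between SE + LEV 2 days and SE 2 days mice (correlation −0.18) and pre-SE mice (−0.44), a block with crossed numbers, chosen after seeing the data, also called 0 members. The planned tests on recovered tags were not run, because only 3 of 10 libraries had 95% of their low values within 0.1 of a whole tag.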
